A study of Mus musculus with 4 samples.

Results

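The genes described here are the solute carriers that move amino acids, peptides, sugars, carboxylates, bile acids, organic ions, vitamins, nucleosides, fatty acids and nucleotide sugars across cell membranes. The rule for choosing them was set with earlier results of these data known, so their shares beside those of all genes are descriptive. It takes every gene of the deposited table whose symbol starts with Slc1a, Slc2a, Slc3a, Slc5a, Slc6a, Slc7a, Slc10a, Slc13a, Slc15a, Slc16a, Slc17a, Slc19a, Slc22a, Slc23a, Slc27a, Slc28a, Slc29a, Slc35, Slc36a, Slc37a, Slc38a, Slc43a, Slc44a, Slc46a, Slc51 or Slco. The rule found 124 of the 14979 genes listed, and 118 of the 124 had enough tags to be tested. It leaves out 2 amino acid carriers by name, Slc7a11 and Slc38a4, both of which lay below the IgG range in each MAdCAM1 library, so the counts of lower carriers given here do not hold them. Slc7a6os was taken in by its symbol although it does not encode a carrier, and its groups overlapped (24.4 and 26.8 against 25.1 and 19.8 CPM).

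Solute carriers are membrane proteins that let small polar molecules pass, either down their own gradient or coupled to sodium, protons or an exchanged substrate. In the colon the surface cells take up short-chain fatty acids made by bacteria, salvage peptides, vitamins and nucleosides, and pass bile acids towards the blood. Members of a separate family, Slc35, sit in the Golgi and endoplasmic reticulum. Some of them bring activated sugars to the enzymes that build the sugar chains of mucins and membrane glycoproteins. Tumour cells are known for their use of glucose, glutamine and large neutral amino acid carriers.

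The RNA came from colon tumours of AOM/DSS mice, in which the carcinogen azoxymethane is followed by dextran sulfate sodium, which inflames the colon. One group had been treated with an antibody against MAdCAM-1, an adhesion molecule of gut venules that lymphocytes bind, and the other with an IgG control antibody. Each group held 2 mice with 1 library each, named IgG 1, IgG 2, MAdCAM1 1 and MAdCAM1 2. Both groups carry the AOM/DSS treatment, and strain, sex, age, dose and whether a library pooled several tumours are not given in the sources used here. CAGE counts 1 tag per captured capped 5′ end, so values are not divided by transcript length. Values are given in the order IgG 1, IgG 2, MAdCAM1 1, MAdCAM1 2 as CPM, tag counts scaled to the library total with TMM factors. A log2 fold change above 0 means a higher level with the MAdCAM-1 antibody. The libraries held 14850923 to 16891234 tags, so that 1 tag equals 0.0569 to 0.0700 CPM.

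Cell type markers differed between the libraries. All 4 libraries expressed the epithelial genes Epcam, Cdh1, Krt8 and Krt18, summed at 4396 and 3964 CPM in the IgG tumours against 6613 and 5853 CPM in the MAdCAM1 tumours, and 3 of these 4 were higher in both MAdCAM1 libraries. Summed smooth muscle markers (4 of 5 listed) stood at 1415 and 82.6 CPM in the IgG tumours against 92.7 and 1601 CPM in the MAdCAM1 tumours, so that each group held 1 library rich in them. Of 7 small intestinal enterocyte markers, 2 were listed, Fabp2 and Fabp6, and both were higher without overlap, with Fabp6 at 0 tags in IgG 2. Summed, they stood at 0.797 and 1.05 CPM in the IgG tumours against 11.97 and 9.19 CPM in the MAdCAM1 tumours. In bulk tissue a larger share of a cell type and more RNA per cell cannot be told apart, and the part of cell mixture in the carrier values was not tested.

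Across the carriers, more members were higher in the tumours of antibody-treated mice than were lower, but no single member passed the quasi-likelihood test. Both MAdCAM1 libraries were above both IgG libraries for 45 of the 118 tested members (38.1%), against 19.7% of all tested genes. Both were below for 14 members (11.9%), against 18.7% of all tested genes, and 59 members overlapped. At a fold change of at least 2 and without overlap, 19 members (16.1%) were higher against 4.05% of all genes, and 5 (4.24%) were lower against 1.27%. The median log2 fold change of the members was 0.09, and that of all tested genes was −0.00122. Most members thus lay near 0 on the log2 scale, with a tail of higher members in most classes, as the plot by substrate class shows. Scaling by library size alone gave 36 higher and 21 lower members without overlap (30.5% and 17.8%, against 13.6% and 28.6% of all genes). Non-overlap is easier to meet with 3 libraries. The lower count was then 43 without IgG 1 (35.5%, against 37% of all genes) and 26 without IgG 2 (21.8%, against 33.1%). It was 37 without MAdCAM1 1 (30.8%, against 35.9%) and 30 without MAdCAM1 2 (24.8%, against 32.5%). The higher count was 54 without IgG 1 (44.6%, against 36.5%) and 58 without IgG 2 (48.7%, against 33.5%). It was 51 without MAdCAM1 1 (42.5%, against 34.3%) and 60 without MAdCAM1 2 (49.6%, against 33.9%). The median of the members became 0.0781 without IgG 1, 0.17 without IgG 2 and 0.18 without MAdCAM1 2.

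edgeR's quasi-likelihood test called 0 members higher and 0 lower at an adjusted p under 0.05, as it did for all genes (0% in each direction), with adjusted p from 0.640 to 0.999 over the members. At an unadjusted p under 0.05 it gave 19 higher members (16.1%, against 5.09% of all genes) and 6 lower ones (5.08%, against 1.82%). On the same counts edgeR's exact test called 8 members higher (6.78%, against 1.06%) and 0 lower (against 0.0628%). DESeq2 called 12 higher (10.2%, against 1.53%) and 1 lower (0.847%, against 0.14%). limma-voom called 0 in each direction (0% of all genes). With 2 mice per group the p-values measure only the spread between these mice, and every call named below was made by the exact test or DESeq2 and not by the quasi-likelihood test.

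**Figure D1:**
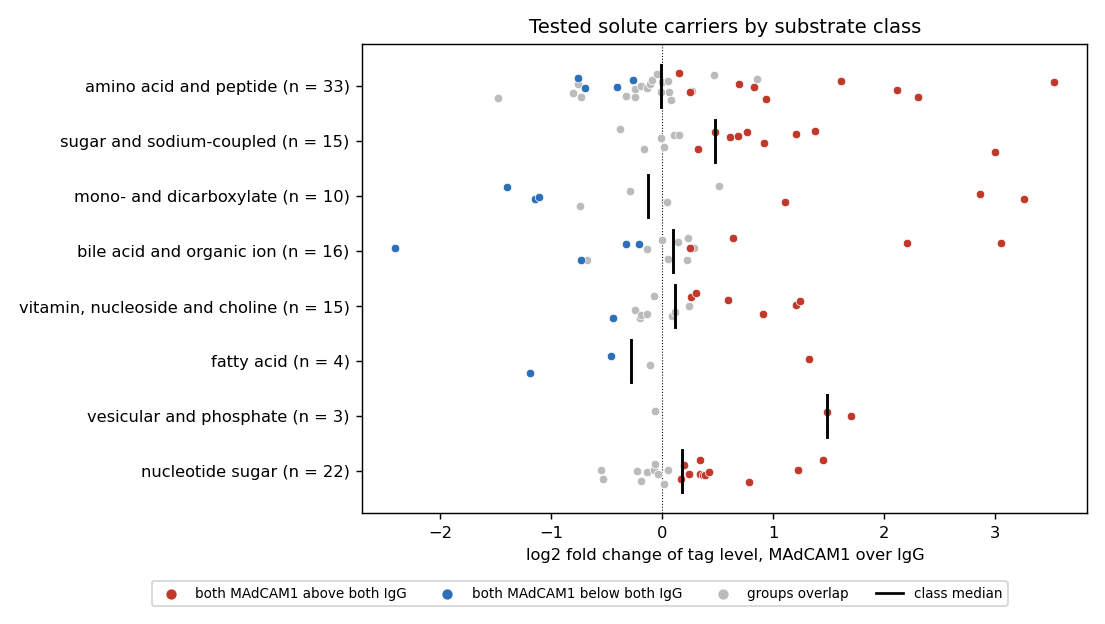
Each point is 1 of the 118 tested carriers, placed by its log2 fold change (MAdCAM1 over IgG, horizontal axis) within its substrate class (vertical axis), and the bar is the class median. Red points have both MAdCAM1 libraries above both IgG libraries (45 members), blue points both below (14 members), and grey points overlap (59 members).

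Promoter sequences of 6 members that were at least 2-fold higher are shown because a CAGE tag marks the start of a transcript, so the bases just before the annotated start are those nearest to the RNA counted. Each stretch holds the 200 bases before the start of the gene's canonical GENCODE M39 transcript on GRCm39, in the direction of transcription, and the 6 were chosen after their levels were seen. Capitals mark matches, on either strand, to the HNF4 motif CAAAGTCCA, the CDX2 motif CAATAAA and its other form TTTATGG, the hypoxia response motif ACGTG, the Sp1 motif GGGCGG and the TATA box motif TATAAA. The stretches lie at chr11:78313061-78313260 on the minus strand (Slc13a2), chr10:88721566-88721765 on the plus strand (Slc5a8), chr3:10400717-10400916 on the minus strand (Slc10a5), chr13:24098995-24099194 on the minus strand (Slc17a4), chr4:34687447-34687646 on the minus strand (Slc35a1) and chrX:7750067-7750266 on the plus strand (Slc35a2).
Slc13a2: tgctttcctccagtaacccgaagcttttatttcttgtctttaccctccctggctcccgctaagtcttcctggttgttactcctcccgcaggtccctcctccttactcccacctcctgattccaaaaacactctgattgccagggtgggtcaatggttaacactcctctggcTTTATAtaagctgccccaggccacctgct
Slc5a8: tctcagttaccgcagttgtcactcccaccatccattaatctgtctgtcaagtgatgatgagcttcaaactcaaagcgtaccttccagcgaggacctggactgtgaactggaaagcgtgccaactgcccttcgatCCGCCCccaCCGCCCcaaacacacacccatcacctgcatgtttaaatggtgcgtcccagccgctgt
Slc10a5: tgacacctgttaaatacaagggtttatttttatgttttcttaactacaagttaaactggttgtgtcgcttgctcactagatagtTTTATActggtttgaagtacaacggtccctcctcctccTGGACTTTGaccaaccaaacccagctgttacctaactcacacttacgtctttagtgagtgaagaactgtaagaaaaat
Slc17a4: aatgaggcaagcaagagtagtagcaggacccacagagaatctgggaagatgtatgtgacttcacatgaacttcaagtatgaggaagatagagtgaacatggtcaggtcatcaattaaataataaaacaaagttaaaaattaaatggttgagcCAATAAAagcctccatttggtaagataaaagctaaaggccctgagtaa
Slc35a1: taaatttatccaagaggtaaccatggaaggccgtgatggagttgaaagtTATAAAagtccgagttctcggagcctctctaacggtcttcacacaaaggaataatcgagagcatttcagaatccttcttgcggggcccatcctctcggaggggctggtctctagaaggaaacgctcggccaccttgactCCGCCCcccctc
Slc35a2: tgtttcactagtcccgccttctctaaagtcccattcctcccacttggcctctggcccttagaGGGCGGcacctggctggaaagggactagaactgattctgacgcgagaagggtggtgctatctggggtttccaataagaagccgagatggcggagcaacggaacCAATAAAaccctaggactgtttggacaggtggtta

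Those stretches differ in make-up. The carboxylate carrier Slc13a2 has a TATA box match close to its start, and Slc10a5 and Slc35a1 have one further up. In Slc13a2 and Slc10a5 the match is the reverse complement, TTTATA, and in Slc35a1 it is as written. Slc17a4 and Slc35a2 hold the CAATAAA form of the CDX2 motif, and Slc10a5 holds the HNF4 motif as its reverse complement, TGGACTTTG. Slc5a8 and Slc35a1 show the Sp1 motif as its reverse complement, and Slc35a2 shows it as written. GC content of the printed bases ran from 37% in Slc17a4 to 54% in Slc5a8, and Slc17a4 held 0 CpG where Slc35a1 held 10.

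Motif shares were counted in windows of 300 bases (250 before the start and 50 from it on) for the 118 tested members and for 14287 tested genes. Among the 19 members at least 2-fold higher, the TATA box match was in 5 windows (26.3%, against 10.2% of tested members and 9.65% of tested genes). The HNF4 motif was in 2 (10.5%, Slc10a5 and Slc5a9, against 1.69% and 0.455%) and the CDX2 motif in 2 (10.5%, Slc17a4 and Slc35a2, against 4.24% and 5.44%). The Sp1 motif was in 10 of the 19 (52.6%, against 54.9% of tested genes) and in 11 of the 14 lower members (78.6%). The hypoxia response motif was in 15.8% of the 19 and 24.6% of tested genes, and the NRF2 motif TGACNNNGC in 15.8% and 13.4%. The ATF4 motif TGATGNAA was in 0% and 2.56%, and the HNF1 motif in 0% and 0.021%. The bile acid receptor motif matched no window of any tested gene. The median window held 53.7% GC in the 19, 61.5% in the 14 lower members and 57.3% in all tested genes. These matches, counted on either strand and at any place in the window, are letters and not measured sites. The TATA box was added to the motif list after the others, and the deposited counts do not say which start the tags came from.

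Amino acid and peptide carriers were divided. Of 33 tested, 9 were higher without overlap (27.3%, against 19.7% of all tested genes), 4 were lower (12.1%, against 18.7%) and 20 overlapped, with a median log2 fold change of −0.01. Summed over the 35 listed, they stood at 1015 and 1126 CPM in the IgG tumours against 1265 and 1161 CPM in the MAdCAM1 tumours.

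Slc15a1 (PEPT1, GRCm39 chr14:121697033-121742845), the proton-coupled carrier of di- and tripeptides, stood at 2.96 and 1.86 CPM in the IgG tumours against 12.3 and 11.7 CPM in the MAdCAM1 tumours. Both MAdCAM1 libraries were above both IgG libraries, 4.96-fold on average (log2 fold change 2.31, SE 0.36, quasi-likelihood adjusted p = 0.640), and both the exact test (adjusted p = 0.00264) and DESeq2 (adjusted p = 0.000461) called it. Slc6a14, a sodium- and chloride-coupled carrier of neutral and cationic amino acids, stood at 21.8 and 6.62 CPM in the IgG tumours against 51.5 and 71.7 CPM in the MAdCAM1 tumours. Its groups did not overlap, but the 2 IgG libraries were far apart (log2 fold change 2.12, SE 0.63, quasi-likelihood adjusted p = 0.691), and only DESeq2 called it (adjusted p = 0.0325). Its log2 fold change was 3.21 without IgG 1 and 1.5 without IgG 2. The gene (chrX:21581135-21608594) shares all its counts with a 5S ribosomal RNA entry that overlaps it on the same strand, so the tags cannot be assigned to Slc6a14 alone. Slc1a1 (EAAT3), which takes up glutamate, aspartate and cysteine, stood at 14.2 and 5.44 CPM in the IgG tumours against 29.6 and 30.5 CPM in the MAdCAM1 tumours without overlap, with IgG 2 the lowest (log2 fold change 1.61, SE 0.50, quasi-likelihood adjusted p = 0.691), and 2.45 on the log2 scale without IgG 1.

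Slc7a7, the light chain of a basolateral exchanger for cationic amino acids, stood at 17.2 and 14.6 CPM in the IgG tumours against 36.6 and 24.3 CPM in the MAdCAM1 tumours (log2 fold change 0.93, SE 0.27). The creatine carrier Slc6a8 was at 199 and 93.1 CPM in the IgG tumours against 237 and 281 CPM in the MAdCAM1 tumours, without overlap, although the IgG libraries differed from each other more than 2-fold (log2 fold change 0.83, SE 0.41, and 1.46 without IgG 1). The taurine carrier Slc6a6 did not overlap either, but differed by far less (83.6 and 91.3 against 95.3 and 99.7 CPM, log2 fold change 0.16, SE 0.13). Slc6a4, the serotonin carrier, was found in 3 and 0 tags in IgG and in 13 and 20 tags in MAdCAM1. The exact test called it (adjusted p = 0.0480), on counts that in IgG do not exceed 3 tags, and DESeq2 did not (adjusted p = 0.602). Slc36a1, a proton-coupled carrier of small amino acids found on lysosomes, was at 23.2 and 19.5 CPM in the IgG tumours against 25.8 and 43.1 CPM in the MAdCAM1 tumours, higher without overlap but with the MAdCAM1 libraries apart (log2 fold change 0.69, SE 0.31).

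Slc3a2 (4F2hc, chr19:8684245-8701108), the heavy chain that carries several Slc7 light chains to the cell surface, had the highest tag level among the lower members. It stood at 93.6 and 118 CPM in the IgG tumours against 65.2 and 59.7 CPM in the MAdCAM1 tumours, below in both MAdCAM1 libraries by 1.69-fold (log2 fold change −0.76, SE 0.17, quasi-likelihood adjusted p = 0.665), and neither the exact test (adjusted p = 0.273) nor DESeq2 (adjusted p = 0.0707) called it. Its gene overlaps the noncoding Snhg1 on the opposite strand. Slc7a5 (LAT1), its light chain for large neutral amino acids, overlapped (30.2 and 39.1 against 34.1 and 24.3 CPM, log2 fold change −0.25, SE 0.25). Slc7a8 (LAT2), a second such light chain, was high in IgG 2 alone (11.95 and 65.5 against 15.9 and 11.9 CPM), and its log2 fold change of −1.48 became 0.21 without that library. Thus the heavy chain was lower without overlap, while Slc7a5 and Slc7a8 overlapped and Slc7a7 was higher. Slc7a11, which the rule leaves out and which was lower as stated at the start, is not part of this comparison.

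Slc1a5 (ASCT2), the main glutamine exchanger of many tumours, stood at 108 and 139 CPM in the IgG tumours against 177 and 121 CPM in the MAdCAM1 tumours, with only MAdCAM1 1 above the rest. Slc38a2 (SNAT2), a sodium-coupled carrier of small neutral amino acids, stood at 90.9 and 99.7 CPM in the IgG tumours against 129 and 69.1 CPM in the MAdCAM1 tumours, with the highest and the lowest value both in MAdCAM1. Slc38a1 (SNAT1), a related carrier, overlapped (59.9 and 94.6 against 86.4 and 43.8 CPM). Slc38a9, the lysosomal carrier that reports arginine to the growth regulator mTORC1, was lower without overlap (10.4 and 10.5 against 9.73 and 6.02 CPM), chiefly through MAdCAM1 2 (log2 fold change −0.41, SE 0.33).

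The sugar and sodium-coupled class was the most one-sided among classes with at least 10 tested members, with a median log2 fold change of 0.48. Of its 15 tested members 9 were higher without overlap (60%, against 19.7% of all tested genes) and 0 lower (0%, against 18.7%). Summed over its 16 listed members the class stood at 337 and 287 CPM in the IgG tumours against 484 and 453 CPM in the MAdCAM1 tumours. Slc5a8 (SMCT1, chr10:88721766-88765377), the sodium-coupled carrier of butyrate and other short-chain fatty acids at the colon surface, showed the widest separation in the class. It stood at 12.1 and 2.10 CPM in the IgG tumours against 56.4 and 57.05 CPM in the MAdCAM1 tumours, so that the 2 MAdCAM1 libraries were nearly equal while the 2 IgG libraries differed several fold. The fold change was 7.98 (log2 fold change 3.00, SE 0.86, quasi-likelihood adjusted p = 0.691), called by DESeq2 (adjusted p = 0.00746) and not by the exact test (adjusted p = 0.0715). On the log2 scale it was 4.73 without IgG 1 and 2.23 without IgG 2.

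The glucose carriers differed less. Slc5a1 (SGLT1), the sodium-coupled glucose and galactose carrier, was at 51.1 and 25.2 CPM in the IgG tumours against 70.4 and 73.7 CPM in the MAdCAM1 tumours (log2 fold change 0.92, SE 0.37, quasi-likelihood adjusted p = 0.731), and Slc5a9 (SGLT4), a sodium-coupled sugar carrier, was at 4.95 and 2.54 CPM in the IgG tumours against 7.70 and 9.65 CPM in the MAdCAM1 tumours (log2 fold change 1.21, SE 0.44). Slc2a1 (GLUT1), the widely expressed facilitative glucose carrier, was higher by a small step (84.97 and 72.6 against 119 and 100.1 CPM, log2 fold change 0.48, SE 0.17), and Slc2a3 (GLUT3) overlapped at low levels (1.42 and 2.41 against 1.05 and 1.88 CPM). Both inositol carriers were higher without overlap: the proton-coupled Slc2a13 at 7.28 and 2.54 CPM in the IgG tumours against 12.3 and 13.4 CPM in the MAdCAM1 tumours, and the sodium-coupled Slc5a3 at 48.3 and 60.7 CPM in the IgG tumours against 70.2 and 66.5 CPM in the MAdCAM1 tumours. Counts of Slc5a3 are identical to those of Mrps6 and Gm49711, so its value cannot be told apart from theirs. Without IgG 1 the log2 fold change of Slc2a13 was 2.32, against 1.38 with all 4 libraries.

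Monocarboxylate and dicarboxylate carriers moved in both directions. Of 10 tested, 3 were at least 2-fold higher without overlap (30%, against 4.05% of all tested genes). Another 3 were at least 2-fold lower without overlap (30%, against 1.27%), and 4 overlapped. Slc13a2 (NaDC1, chr11:78287913-78313060), the sodium-coupled carrier of succinate, citrate and other Krebs cycle intermediates, stood at 2.79 and 0.990 CPM in the IgG tumours against 25.5 and 10.9 CPM in the MAdCAM1 tumours. Both MAdCAM1 libraries were above both IgG libraries, by 9.57-fold on average (log2 fold change 3.26, SE 0.73, quasi-likelihood adjusted p = 0.665), though they differed from each other more than 2-fold. The exact test (adjusted p = 0.0105) and DESeq2 (adjusted p = 0.00144) both called it. Its log2 fold change was 4.17 without IgG 1 and 2.52 without MAdCAM1 1. Slc16a5, a less studied member of the monocarboxylate family, stood at 1.25 and 0.618 CPM in the IgG tumours against 7.21 and 6.54 CPM in the MAdCAM1 tumours and was also called by both (exact test adjusted p = 0.00178, DESeq2 adjusted p = 0.00248). Slc16a1 (MCT1), which carries lactate, pyruvate and butyrate with protons, was at 26.6 and 13.2 CPM in the IgG tumours against 48.1 and 37.7 CPM in the MAdCAM1 tumours (log2 fold change 1.11, SE 0.40, quasi-likelihood adjusted p = 0.718). The lactate exporter Slc16a3 (MCT4) overlapped (38.1 and 44.6 against 76.6 and 41.3 CPM).

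Slc16a10 (TAT1, chr10:39909448-40018304), a carrier of aromatic amino acids, stood at 44.7 and 88.6 CPM in the IgG tumours against 25.7 and 24.99 CPM in the MAdCAM1 tumours, lower in both MAdCAM1 libraries by 2.63-fold (log2 fold change −1.39, SE 0.37, quasi-likelihood adjusted p = 0.691). It was the 1 member that DESeq2 called lower (adjusted p = 0.0467), and the exact test did not call it (adjusted p = 0.100). Slc16a11 was at 10.98 and 7.17 CPM in the IgG tumours against 4.76 and 3.43 CPM in the MAdCAM1 tumours, without overlap (log2 fold change −1.15, SE 0.38). It overlaps Slc16a13 on the opposite strand, and the labels do not say whether counting used strand.

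Of 16 tested bile acid and organic ion carriers, 4 were higher without overlap and 4 were lower (25% each, near the 19.7% and 18.7% of all tested genes), and 8 overlapped. Slc51b (chr9:65319995-65330597), a subunit of the bile acid exporter of the basolateral membrane, was found in 29 and 1 tags in IgG and in 72 and 146 tags in MAdCAM1 (1.65 and 0.0618 against 5.04 and 9.45 CPM). Its log2 fold change was 3.06 (SE 1.27), and 6.69 without IgG 1. The quasi-likelihood test (adjusted p = 0.741), the exact test (adjusted p = 0.627) and DESeq2 (adjusted p = 0.352) did not call Slc51b. Its partner subunit Slc51a was not among the genes of the deposited table. Slc10a5, a member of the bile acid carrier family, stood at 1.99 and 0.309 CPM in the IgG tumours against 5.53 and 5.24 CPM in the MAdCAM1 tumours, with IgG 2 again lowest (log2 fold change 2.21, SE 0.90, quasi-likelihood adjusted p = 0.731). Its counts are identical to those of Gm38303, and its log2 fold change was 4.07 without IgG 1 and 1.43 without IgG 2. Slco4c1 (chr1:96743995-96800111), an organic anion carrier, was lower without overlap, with 31 and 59 tags in IgG and 7 and 8 in MAdCAM1 (1.76 and 3.65 against 0.490 and 0.518 CPM). The fold change was 5.29 towards IgG (log2 fold change −2.40, SE 0.58, quasi-likelihood adjusted p = 0.671), and neither the exact test (adjusted p = 0.0895) nor DESeq2 (adjusted p = 0.269) called it. Without IgG 2 it was −1.80 on the log2 scale. The carnitine carrier Slc22a5 (18.7 and 12.9 against 18.3 and 18.7 CPM) and the prostaglandin carrier Slco2a1 (13.5 and 24.7 against 19.3 and 27.4 CPM) overlapped. Slc22a18, an organic cation carrier, was higher by little (27.5 and 28.3 against 37.95 and 28.6 CPM).

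Of 15 tested carriers of vitamins, nucleosides and choline, 6 were higher without overlap (40%, against 19.7% of all tested genes). In the same class 1 was lower (6.67%, against 18.7%) and 8 overlapped. Slc44a4 (chr17:35133442-35149412), which takes up the phosphorylated form of thiamine in the colon, stood at 104 and 69.3 CPM in the IgG tumours against 192 and 217 CPM in the MAdCAM1 tumours. Both MAdCAM1 libraries were above both IgG libraries (log2 fold change 1.24, SE 0.25, quasi-likelihood adjusted p = 0.665), and the exact test (adjusted p = 0.0383) and DESeq2 (adjusted p = 0.00441) called it. Slc28a3, a concentrative nucleoside carrier, was at 9.90 and 9.46 CPM in the IgG tumours against 24.2 and 20.5 CPM in the MAdCAM1 tumours, with both libraries of each group close together (log2 fold change 1.21, SE 0.20, quasi-likelihood adjusted p = 0.647). DESeq2 called it (adjusted p = 0.00968) and the exact test did not (adjusted p = 0.0890). The proton-coupled folate carrier Slc46a1 (13.5 and 10.6 against 19.5 and 16.9 CPM) and the reduced folate carrier Slc19a1 (9.90 and 9.65 against 13.1 and 11.1 CPM) were higher without overlap by smaller steps (0.59 and 0.31 on the log2 scale). The choline carrier Slc44a1 was near level in 3 libraries and lower in IgG 2 (251 and 186 against 262 and 260.5 CPM), its relative Slc44a2 was lower without overlap (61.8 and 79.1 against 52.7 and 50.8 CPM), and the equilibrative nucleoside carrier Slc29a1 overlapped (53.04 and 89.1 against 72.9 and 56.2 CPM).

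The 4 fatty acid carriers of family Slc27, which also activate fatty acids with coenzyme A, did not move together. Slc27a2 was higher at low levels (1.88 and 0.618 CPM in the IgG tumours against 3.64 and 2.65 CPM in the MAdCAM1 tumours), with a log2 fold change of 1.32 (SE 0.66) that was 2.31 without IgG 1 and 0.73 without IgG 2. Slc27a1 (25.2 and 22.8 against 19.2 and 15.7 CPM) and Slc27a3 (2.90 and 2.47 against 1.12 and 1.23 CPM) were lower without overlap, the latter by more than 2-fold (log2 fold change −1.19, SE 0.40, quasi-likelihood adjusted p = 0.691). Among the 3 members of family Slc17, Slc17a4 (chr13:24079873-24098994), an anion carrier of the intestinal surface, stood at 10.5 and 7.92 CPM in the IgG tumours against 37.6 and 22.5 CPM in the MAdCAM1 tumours (log2 fold change 1.70, SE 0.34, quasi-likelihood adjusted p = 0.665). The exact test (adjusted p = 0.0237) and DESeq2 (adjusted p = 0.00686) called it. Slc17a9, which loads ATP into vesicles, was at 9.68 and 6.25 CPM in the IgG tumours against 25.4 and 19.4 CPM in the MAdCAM1 tumours (log2 fold change 1.49, SE 0.32, quasi-likelihood adjusted p = 0.665) and was called by DESeq2 alone (adjusted p = 0.0249). Slc17a5, which exports sialic acid from lysosomes, overlapped (27.9 and 37.5 against 33.9 and 28.9 CPM).

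**Figure D2:**
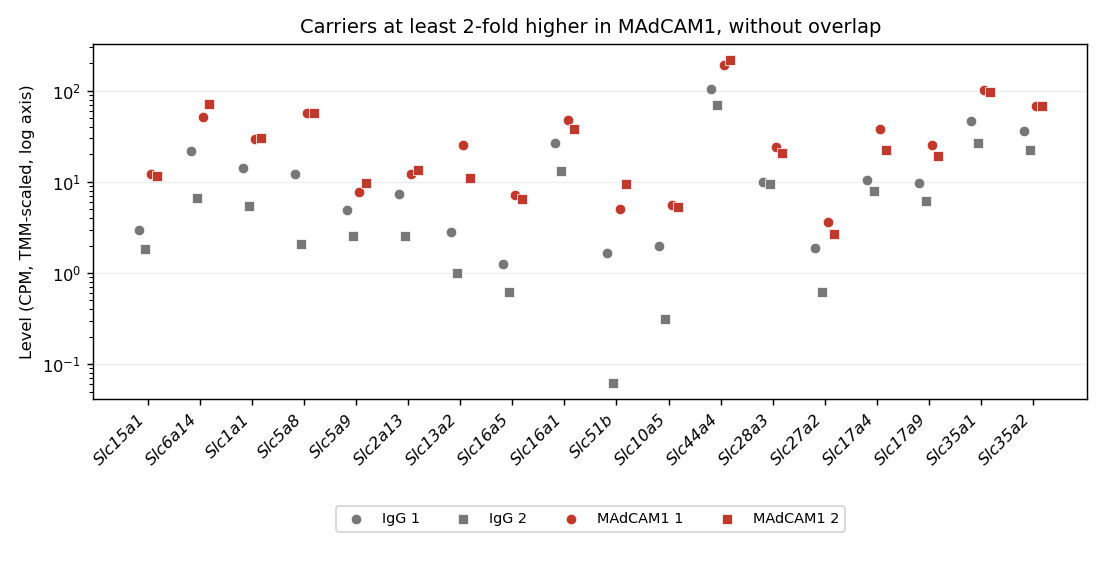
Level (CPM, TMM-scaled, logarithmic vertical axis) in each of the 4 libraries for the carriers of mean CPM at least 1 that were at least 2-fold higher without overlap. Grey symbols are IgG 1 (circle) and IgG 2 (square) and red symbols MAdCAM1 1 (circle) and MAdCAM1 2 (square), and IgG 2 is the lowest library for every gene shown, down to 1 tag for Slc51b.

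The nucleotide sugar class is family Slc35 by symbol alone, and not every member carries a nucleotide sugar, as with Slc35b1 and Slc35b2 below. Of 22 tested members, 11 were higher without overlap (50%, against 19.7% of all tested genes), 0 were lower (0%, against 18.7%) and 11 overlapped. The median log2 fold change of these members was 0.18. Summed, they stood at 949.5 and 963 CPM in the IgG tumours against 1242 and 1192 CPM in the MAdCAM1 tumours. The 3 members with the largest log2 fold changes in the class were Slc35a1, Slc35a2 and Slc35a3. Slc35a1 (chr4:34663244-34687461), the carrier of CMP-sialic acid, stood at 46.9 and 26.4 CPM in the IgG tumours against 103 and 97.4 CPM in the MAdCAM1 tumours (log2 fold change 1.45, SE 0.32, quasi-likelihood adjusted p = 0.665). Slc35a2 (chrX:7750263-7760731), the carrier of UDP-galactose, stood at 35.8 and 22.6 CPM in the IgG tumours against 68.7 and 67.5 CPM in the MAdCAM1 tumours (log2 fold change 1.22, SE 0.27, quasi-likelihood adjusted p = 0.665). Slc35a3 (chr3:116460927-116506480), the carrier of UDP-N-acetylglucosamine, stood at 108 and 104 CPM in the IgG tumours against 189 and 176 CPM in the MAdCAM1 tumours (log2 fold change 0.78, SE 0.14, quasi-likelihood adjusted p = 0.665).

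For all 3 the MAdCAM1 libraries were close to each other and above both IgG libraries. The exact test called Slc35a1 (adjusted p = 0.0191) and Slc35a2 (adjusted p = 0.0476) and not Slc35a3 (adjusted p = 0.233), and DESeq2 called all 3 (adjusted p = 0.00774, 0.0201 and 0.00183). Slc35c1, the GDP-fucose carrier, was higher by a smaller step (114 and 140.3 against 166 and 162 CPM, log2 fold change 0.37, SE 0.17). Slc35d1, a carrier of UDP-sugars, overlapped (15.3 and 10.02 against 15.3 and 14.5 CPM). Slc35b2, which brings the sulfate donor PAPS into the Golgi, overlapped as well (86.3 and 107 against 102 and 94.1 CPM), and Slc35b1, which exchanges ATP and ADP across the endoplasmic reticulum, was higher by little (68.8 and 52.3 against 71.6 and 86.96 CPM).

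**Figure D3:**
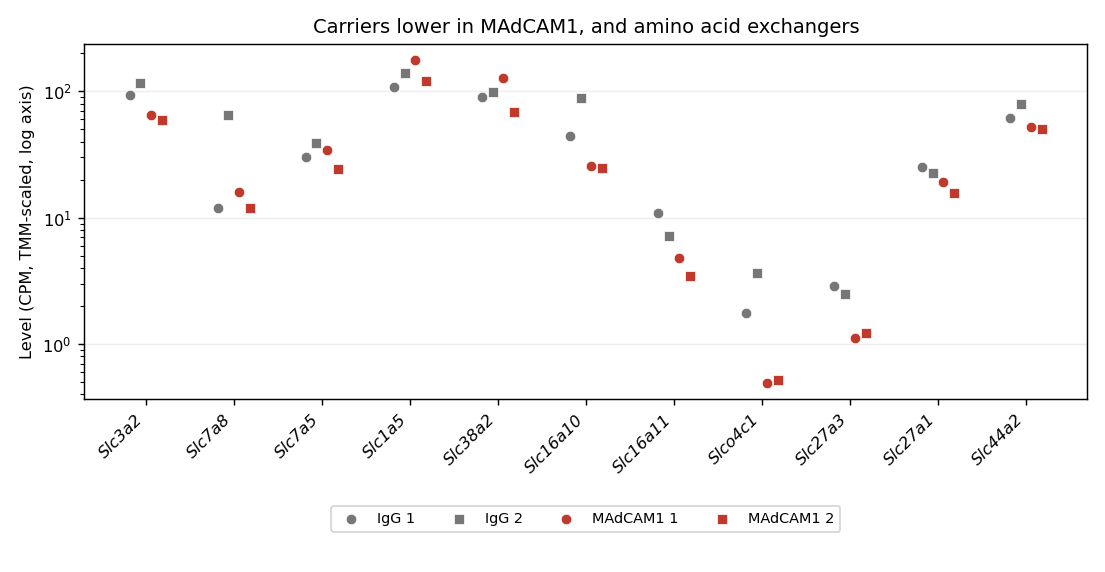
Level (CPM, TMM-scaled, logarithmic vertical axis) in each of the 4 libraries for carriers that were lower in MAdCAM1 and for amino acid exchangers, with symbols for IgG 1, IgG 2, MAdCAM1 1 and MAdCAM1 2 as given in the key. Slc3a2, Slc16a10, Slc16a11, Slco4c1, Slc27a3, Slc27a1 and Slc44a2 have both red symbols below both grey ones, Slc7a8 is high in IgG 2 alone, and Slc7a5, Slc1a5 and Slc38a2 overlap.

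Genes that work with these carriers were counted in the same way. Of 8 subunits and chaperones, 5 were in the table, and 0 of these were higher or lower without overlap (against 19.7% and 18.7% of all tested genes). Bsg (basigin), which brings Slc16a1 and Slc16a3 to the surface, was at 628 and 837 CPM in the IgG tumours against 761 and 704 CPM in the MAdCAM1 tumours, while Emb (embigin), a related chaperone, ranged within MAdCAM1 from the lowest to the highest value (22.4 and 24.1 against 8.68 and 36.6 CPM). ATF4 is the factor that switches on amino acid carriers when amino acids are scarce. Of 9 tested genes, Atf4 itself and its targets, 2 were higher without overlap (22.2%, near the 19.7% of all tested genes). In the same list 1 was lower (11.1%, against 18.7%) and the median log2 fold change was 0.10. Asparagine synthetase (Asns) was at 37.2 and 28.1 CPM in the IgG tumours against 40.2 and 43.00 CPM in the MAdCAM1 tumours and the serine synthesis enzyme Psat1 at 21.6 and 19.9 CPM in the IgG tumours against 16.3 and 18.5 CPM in the MAdCAM1 tumours. Of 11 genes of lysosomal amino acid sensing, 2 were higher (18.2%, against 19.7%) and 1 lower (9.09%, against 18.7%), with a median log2 fold change of 0.06.

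Genes that sense the substrates were few. Of 5 bile acid sensing genes 2 were listed, and both were higher without overlap. Nr1h4 (FXR), the bile acid receptor of the nucleus and an activator of Slc51b, stood at 4.55 and 1.67 CPM in the IgG tumours against 14.9 and 19.4 CPM in the MAdCAM1 tumours (log2 fold change 2.46, SE 0.56, quasi-likelihood adjusted p = 0.670). Fabp6, the intracellular bile acid binding protein, was found in 2 and 0 tags in IgG and in 21 and 76 in MAdCAM1. Of the receptors for short-chain fatty acids, Ffar2 was higher at low levels (0.968 and 0.433 against 1.40 and 1.42 CPM) and Hcar2 overlapped (4.50 and 1.11 against 0.840 and 1.49 CPM).

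Markers of differentiated epithelium, and the 2 listed markers of small intestinal enterocytes given above, differed between the groups in the same direction as the higher carriers. Of 8 colonocyte markers 7 were higher without overlap, at a summed 390.1 and 226 CPM in the IgG tumours against 1166 and 719 CPM in the MAdCAM1 tumours, and of 6 goblet cell markers 6 were higher, at a summed 2365 and 1055 CPM in the IgG tumours against 9759 and 6705 CPM in the MAdCAM1 tumours. All 4 listed enteroendocrine markers of 5 were higher, at a summed 22.5 and 5.57 CPM in the IgG tumours against 128 and 149 CPM in the MAdCAM1 tumours, with Gcg at 0 tags in IgG 2. No marker of smooth muscle, fibroblasts (summed 373 and 1087 CPM in the IgG tumours against 402 and 1412 CPM in the MAdCAM1 tumours), endothelium, macrophages (43.7 and 103 CPM in the IgG tumours against 30.8 and 105 CPM in the MAdCAM1 tumours) or T cells (23.8 and 24.4 CPM in the IgG tumours against 12.3 and 41.8 CPM in the MAdCAM1 tumours) separated the groups, and 1 of 4 mast cell markers was higher. The 3 tested neutrophil markers overlapped, and the untested Cxcr2 was lower without overlap at 4 and 7 tags in IgG and 0 and 1 in MAdCAM1. Of 3 listed B and plasma cell markers 2 were higher, chiefly in MAdCAM1 2 (17.2 and 38.1 CPM in the IgG tumours against 45.2 and 519 CPM in the MAdCAM1 tumours). The share of these markers in the carrier differences was not tested.

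**Figure D4:**
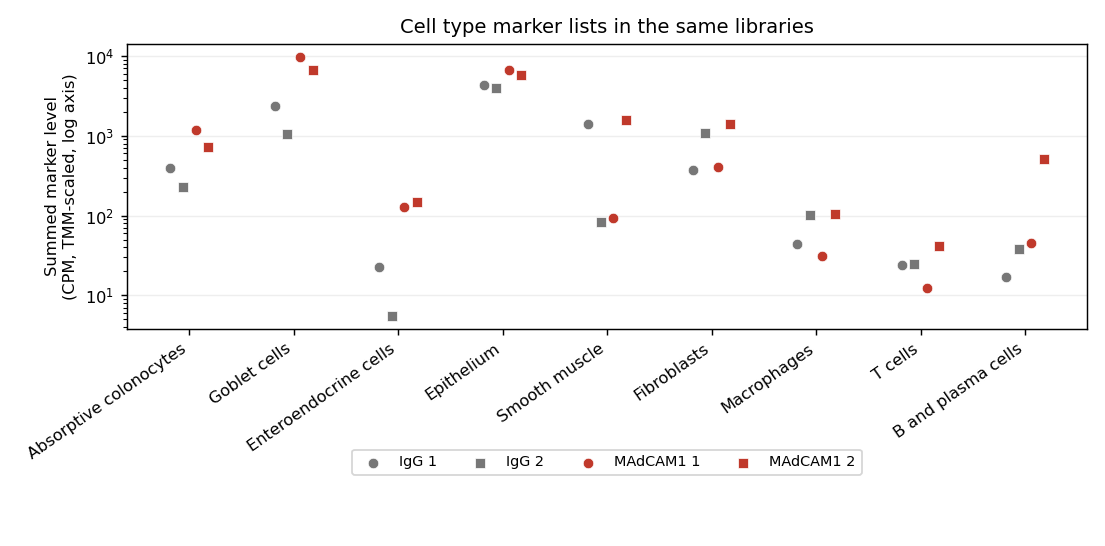
Summed level of the marker genes of each cell type (CPM, TMM-scaled, logarithmic vertical axis) in IgG 1, IgG 2, MAdCAM1 1 and MAdCAM1 2. Colonocyte, goblet, enteroendocrine and epithelial sums are higher in both MAdCAM1 libraries, smooth muscle is high in IgG 1 and MAdCAM1 2, and B and plasma cell markers reach 519 CPM in MAdCAM1 2 alone.

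Levels were also divided by the summed Epcam, Cdh1, Krt8 and Krt18 of each library, a scaling chosen after the data were seen. With 1 factor per library every gene moves alike, by 0.58 towards IgG on the log2 scale, so that members with smaller differences turn and lower members stay lower by construction. The scaling therefore only tells which members kept both MAdCAM1 libraries above both IgG libraries after division by each library's factor. These factors were 0.863, 0.778, 1.30 and 1.15, so the outcome also depends on the spread within a group. Slc5a1 (log2 fold change 0.92) and Slc6a8 (0.83) overlapped after scaling although they differed by more than 0.58. Of the 45 higher members, 21 stayed above without overlap (17.8% of those tested, against 3.82% of all genes). The 21 held every member plotted as at least 2-fold higher, together with Slc35a3, Slc7a7 and Slc6a4.

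IgG 2 held the lowest value of 46 tested members (39%, against 30.1% of all tested genes) and the highest of 35 (29.7%, against 29.3%). MAdCAM1 1 held the lowest of 19 (16.1%, against 21.8%) and the highest of 38 (32.2%, against 24.4%). The 6 members with too few tags to test were Slc10a2 (4, 18, 6 and 7 tags), Slc16a9 (4, 1, 2 and 6), Slc19a3 (8, 14, 1 and 6), Slc2a6 (10, 2, 3 and 8), Slc6a12 (3, 3, 10 and 2) and Slc6a7 (0, 2, 4 and 3). Of these, Slc19a3, a thiamine carrier, had more tags in both IgG libraries than in either MAdCAM1 library, and Slc6a7, a proline carrier, had more in MAdCAM1 at 4 tags or fewer. The ileal bile acid importer Slc10a2 overlapped.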

How the data were processed

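CAGE libraries of 4 mouse colon tumour samples, 2 per antibody group, were analysed. Per the labels' protocols, RNA of integrity number above 7.0 was cap-trapped and tags were mapped to GRCm39 with BWA 0.7.17 and HISAT2 2.0.5. The tags were then clustered with RECLU, with bedtools 2.12.0 for overlaps and edgeR 3.22.5 for expression. The authors deposited raw tag counts per gene. The step from clusters to genes and the use of strand are not given in the sources used here.

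After filterByExpr with the groups, 14331 of 14979 genes were kept, scaled by TMM and compared as MAdCAM1 minus IgG with edgeR 4.0.16 (R 4.3.3). The test was the robust quasi-likelihood F test, adjusted over all tested genes by Benjamini-Hochberg at 0.05. SE is the absolute log2 fold change divided by the root of F. The common biological coefficient of variation was 0.322. The fits were tested on simulated data. The alternatives tried were scaling by RLE, by upper quartile and by library size, other filters, leaving out each library, a replicate block, DESeq2 1.42.0, limma-voom (limma 3.58.1) and edgeR's exact test, and a scaling to epithelial markers was added after the data were seen.

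Members and lists were chosen with earlier results of these data known. Members were placed in 8 classes by symbol prefix. In each class the text could name up to 5 members per direction with the smallest p, at a mean CPM of at least 1, a fold of at least 2 and no overlap, the 3 most abundant members, and those of a list of 78 carriers known in gut or tumours (65 in the table). Slc7a6os, the untested members and the partner genes stand outside that rule, and those named were picked after their values were seen. Gene positions and promoters came from GENCODE M39 on GRCm39, which matched 124 of 124 members. All 4 columns of counts were used. A carrier counted among the lower members is not reported here.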

Additional observations from a re-analysis of the deposited data

How the results depend on the processing

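With 2 mice per group the results rest on single libraries, and 1 tag is 0.0569 to 0.0700 CPM, so members below about 1 CPM rest on few tags. The number of members called higher was 0 by the quasi-likelihood test under every scaling, filter, left-out library and block tried and by limma-voom, 8 by edgeR's exact test and 12 by DESeq2, which called 1 lower. Scaling to library size alone moved the median of all genes to −0.10 and that of members to −0.0121. With it 36 members were higher without overlap (30.5%, against 13.6% of all genes) and 21 lower (17.8%, against 28.6%). RLE and upper quartile scaling gave 45 and 43 higher (38.1% and 36.4%, against 19.5% and 19.1% of all genes). They gave 14 and 16 lower (11.9% and 13.6%, against 19% and 19.6%). Without 1 library, non-overlap is easier to meet: 51 to 60 members were higher (42.5% to 49.6%, against 33.5% to 36.5% of all genes). Lower were 26 to 43 members (21.8% to 35.5%, against 32.5% to 37%). The median of members was 0.0648 to 0.183. Without IgG 2 it was 0.172 and without MAdCAM1 2 it was 0.183. With epithelial marker scaling 21 members were higher (17.8%, against 3.82% of all genes) and 67 lower (56.8%, against 69.3%). The median of members was then −0.49. The replicate numbers belong to different mice and do not pair them. The correlation of deviations was −0.135, a value that with 2 libraries per group is the same for both pairs by construction. A replicate block called 0 members and gave a median of 0.0762.

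Signs of the following members turned, among them Slc7a8, which IgG 2 alone decided. With library size alone, Slc35b2 was −0.0821 and Slc38a2 −0.0453. Slc38a2 was −0.0126 with the replicate block and −0.0145 by limma-voom. Over the left-out libraries the ranges were −0.151 to 0.175 for Slc35b2, −0.466 to 0.435 for Slc38a2, −0.0975 to 0.780 for Slco2a1, −0.273 to 0.160 for Slc17a5, −0.0236 to 0.508 for Slc22a5, −0.483 to 0.275 for Slc29a1, −0.862 to 0.0411 for Slc2a3, −2.25 to 0.210 for Slc7a8 and −0.0328 to 0.516 for Slc1a5. Epithelial marker scaling, which moves all genes alike and turns small positive values by construction, gave Slc16a3 −0.0635, Slc19a1 −0.270, Slc1a5 −0.308, Slc22a18 −0.320, Slc22a5 −0.348, Slc2a1 −0.0995, Slc35b1 −0.187, Slc35b2 −0.561, Slc35c1 −0.209, Slc38a2 −0.522, Slc44a1 −0.318, Slc5a3 −0.249, Slc6a6 −0.418 and Slco2a1 −0.290. Apart from the scaling itself and the left-out libraries, the cause was not tested.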
